A study of Mus musculus with 6 samples.

Results

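Transcripts of complement components and receptors were examined in the marrow of mice given NOX-A12 and of mice left untreated. The genes were C1qa, C1qb, C1qc, C3, C3ar1, C5ar1, Cfb, Cfp and C4b, and every probe set annotated to exactly 1 of these symbols was taken. This gave 13 probe sets of 7 genes, out of 45037 probe sets of 18193 genes in the table. C3 and C4b had no probe set under this rule and are not analysed here as single genes.

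NOX-A12 is an L-RNA oligonucleotide that captures the chemokine CXCL12, a factor that holds blood-forming cells in the marrow. Unsorted bone marrow cells came from 3 mice given NOX-A12 and 3 mice given no treatment, each hybridised to its own Affymetrix Mouse Genome 430 2.0 array. All 6 mice were SCID/Bg, which have no mature lymphocytes of the T and B lineages and weak natural killer cells. The sources used here give no dose, schedule or age. Whole marrow mixes many cell types, so fewer cells of a type and less RNA per cell cannot be told apart.

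Complement is a cascade of plasma proteins that marks and lyses targets. The classical pathway starts when C1q, built from the products of C1qa, C1qb and C1qc, binds antibody or damaged cells, and the alternative pathway is driven by factor B and properdin. Each route cleaves C3 and then C5, and the released fragments C3a and C5a signal through the receptors encoded by C3ar1 and C5ar1. Most components are secreted by the liver, whereas C1q comes mainly from macrophages and dendritic cells. In marrow, complement fragments are known to modulate how stem and progenitor cells respond to CXCL12.

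Values are linear probe-set intensities. Each difference subtracts the untreated mean from the NOX-A12 mean after log2(intensity + 16), a scale that makes differences of dim probe sets look smaller, and has a standard error (SE) beside it. The median intensity of an array lay between 44.8 and 45.6. The array of untreated mouse 3 stood apart from the others, with 851 probe sets more than 2-fold away from the median of the remaining arrays. Each remaining array had 44 to 67 such probe sets. The erythroid and neutrophil marker lists of marrow were bright in every mouse. Of 5 hepatocyte genes measured, 4 were below the table's median, Fgb among them at 7.46 in NOX-A12 and 7.41 in untreated marrow, while Ttr, the transthyretin gene, was above it at 156 in NOX-A12 and 147 in untreated marrow.

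None of the 13 complement probe sets passed the limma test between the groups. At an adjusted p under 0.05, 0 of 13 passed in either direction, where 0% of all probe sets passed, and the limma adjusted p lay between 0.967 and 0.980. At an unadjusted limma p under 0.05, 0 of 13 were higher and 0 lower, where 1.88% of all probe sets were higher and 3.10% lower, or 4.97% together. The groups overlapped at every one of the 13, while 9.85% of all probe sets had groups that do not overlap, 5.85% on the lower side. With 7 values on the higher side and 6 on the lower side, the probe sets gave a median difference of 0.05, next to 0.00 over all probe sets. Every 95% interval held 0, and the outermost bounds over the 13 probe sets were -0.85 and 0.99.

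**Figure D1:**
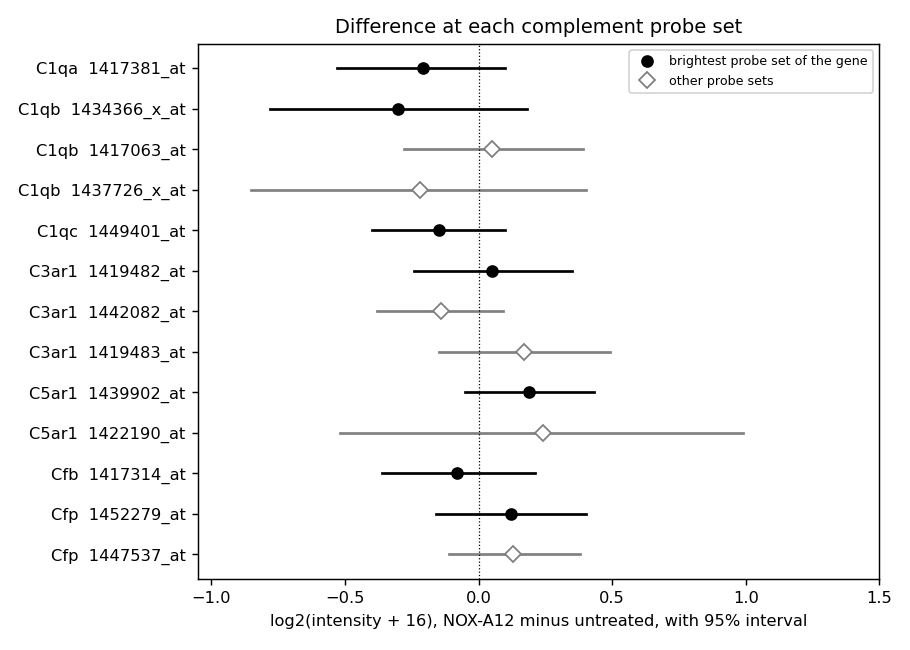
Difference of log2(intensity + 16), NOX-A12 minus untreated, at each of the 13 complement probe sets, with the 95% interval of the limma fit as a horizontal bar. Filled circles mark the brightest probe set of a gene and open diamonds the others; every interval crosses 0, from -0.85 at the lowest bound (C1qb) to 0.99 at the highest (C5ar1).

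The C1q chains act first in the classical pathway. C1qb and C1qc lie next to each other with C1qa on mouse chromosome 4, and the 250 bases before the start sites of C1qb (chr4:136886201-136886450, minus strand) and C1qc (chr4:136892915-136893164, minus strand) are shown, from RefSeq on GRCm38.p6. They are shown because the chains of 1 protein are read from neighbouring genes in the same mice. C5ar1 (chr7:16259339-16259588, minus strand) is added as the gene with the smallest p among the complement genes. Capitals mark AGGAAGT or its reverse complement ACTTCCT, letters found in sites of ETS factors such as PU.1, a regulator of myeloid cells.
C1qb promoter: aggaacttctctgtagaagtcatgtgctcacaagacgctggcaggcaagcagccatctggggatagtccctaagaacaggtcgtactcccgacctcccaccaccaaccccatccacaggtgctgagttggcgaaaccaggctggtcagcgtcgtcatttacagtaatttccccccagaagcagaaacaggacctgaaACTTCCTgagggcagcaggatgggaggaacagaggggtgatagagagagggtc
C1qc promoter: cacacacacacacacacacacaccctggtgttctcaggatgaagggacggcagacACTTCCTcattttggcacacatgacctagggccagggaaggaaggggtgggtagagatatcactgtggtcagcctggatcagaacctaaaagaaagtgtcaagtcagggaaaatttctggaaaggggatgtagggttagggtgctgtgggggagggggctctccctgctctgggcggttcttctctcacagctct
C5ar1 promoter: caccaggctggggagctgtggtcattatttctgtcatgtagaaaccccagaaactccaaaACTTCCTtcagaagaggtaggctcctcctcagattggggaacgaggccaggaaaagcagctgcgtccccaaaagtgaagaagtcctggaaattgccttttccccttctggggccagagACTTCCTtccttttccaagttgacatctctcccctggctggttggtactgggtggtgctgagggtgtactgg

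The motif AGGAAGT, searched on both strands, was present in 3 of the 5 complement genes that had both a probe set and a promoter sequence, and in 7.69% of 32851 promoters of the same length. Its leftmost base stood at position -53 in C1qb, at -195 in C1qc, and at -190 and -72 in C5ar1, counted from the start site. The C3ar1 and Cfp promoters did not hold these letters in this window. The motif was chosen with these sequences in view, and a match is a description of letters only.

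C1qa, the gene of the A chain of C1q, had intensities of 1584, 1296 and 1342 in NOX-A12 mice 1 to 3, against 1402, 1668 and 1850 in untreated mice 1 to 3. NOX-A12 mice 2 and 3 lay below every untreated mouse, while NOX-A12 mouse 1 lay above untreated mouse 1. The means were 1407 ± 155 in NOX-A12 and 1640 ± 226 in untreated marrow (SD, n = 3 each), a difference of -0.21 ± 0.14 (SE; limma adjusted p = 0.967, 95% interval -0.53 to 0.10). The difference was -0.12 without untreated mouse 3 and -0.32 without untreated mouse 1.

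C1qc, the gene of the C chain, had intensities of 525, 431 and 454 in NOX-A12 mice, against 515, 554 and 497 in untreated mice. Again NOX-A12 mice 2 and 3 were below every untreated mouse and NOX-A12 mouse 1 was among them. The difference was -0.15 ± 0.11 (SE; limma adjusted p = 0.967, 95% interval -0.40 to 0.10), from means of 470 ± 48.9 in NOX-A12 and 522 ± 29.3 in untreated marrow (SD, n = 3 each). It was -0.09 without NOX-A12 mouse 2 and -0.23 without NOX-A12 mouse 1.

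C1qb, the gene of the B chain, was read by 3 probe sets that disagreed. The brightest, 1434366_x_at, had 574, 465 and 524 in NOX-A12 mice, against 498, 600 and 886 in untreated mice. Its high mean in untreated marrow came with a single high array, that of untreated mouse 3. The difference of -0.30 ± 0.21 (SE; limma adjusted p = 0.967) was -0.07 without that mouse and -0.48 without untreated mouse 1.

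Another C1qb probe set, 1437726_x_at, had 424, 356 and 347 in NOX-A12 mice, against 328, 367 and 700 in untreated mice, so untreated mouse 3 was again the highest. Its difference of -0.22 ± 0.27 was 0.10 without that mouse. The remaining set, 1417063_at, had 552, 528 and 473 in NOX-A12 mice, against 544, 557 and 405 in untreated mice, a difference of 0.05 ± 0.14. Here untreated mouse 3 was the lowest of the 6.

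Set on a common scale, untreated mouse 3 lay 0.60 and 0.76 log2 units above the mean of the 6 mice at the C1qb probe sets whose names end in x_at, a suffix Affymetrix gives to sets with probes that may cross-hybridise. It lay at -0.31 at the C1qb probe set without that suffix, at 0.29 for C1qa and at 0.01 for C1qc. The 3 NOX-A12 mice stayed within -0.30 and 0.12 at every C1q probe set. Without untreated mouse 3 the C1qb probe sets gave -0.07, 0.10 and -0.09, in the order above. The SD of log2 values at 1434366_x_at was 0.15 in NOX-A12 and 0.41 in untreated marrow.

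**Figure D2:**
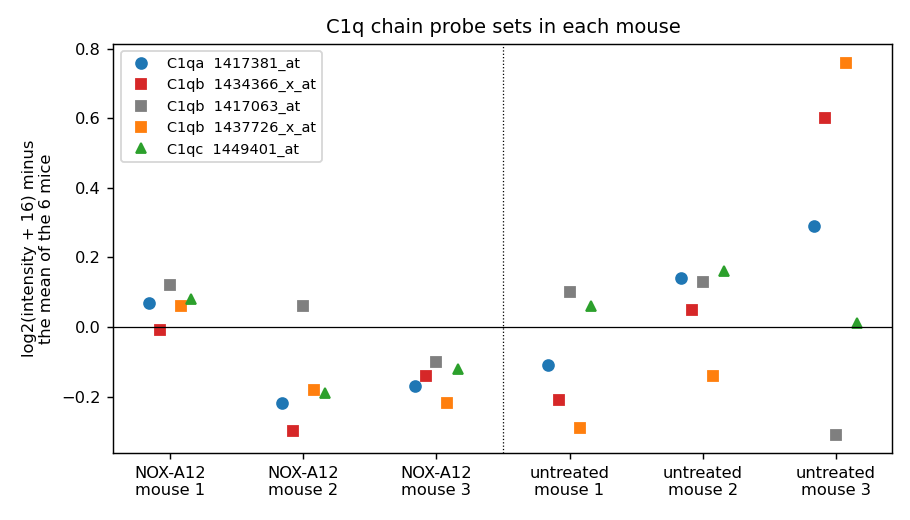
Level of each C1q chain probe set in each mouse, as log2(intensity + 16) minus the mean of the 6 mice, with NOX-A12 mice left of the dotted line and untreated mice right of it. In untreated mouse 3 the C1qb probe sets spread from -0.31 to 0.76, while in NOX-A12 mice all C1q values lay between -0.30 and 0.12.

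Markers of resident macrophages, the main source of C1q, were mostly lower in NOX-A12 marrow beside the C1q values. The median over 14 macrophage genes was -0.29, with 12 of them on the lower side. Of all 18193 genes, 9607 were lower. Timd4 at -0.52 and Siglec1 at -0.48 were the lowest, while Adgre1, Vcam1, Csf1r, Cd68 and Cd163 lay between -0.04 and 0.08. The B lineage and natural killer lists had medians of -0.32 and -0.34. The summed intensity of the 14 macrophage genes was 11050 to 12157 in NOX-A12 mice, against 12367 to 13420 in untreated mice. Adgre1, a defining member, averaged 627 in NOX-A12 and 647 in untreated marrow, and all 14 genes were above the table's median intensity. None passed the limma test (lowest adjusted p = 0.926), and the part of macrophage number in the C1q values was not tested.

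The genes whose pattern over the 6 arrays was most like the mean of the C1q chains were Abcc3, Slc2a1, Ada, Focad and Rab8a. Likeness was the root mean square difference between centred log2 profiles, sought among 10546 genes brighter than the table's median. It was 0.025 for Abcc3, a membrane transporter gene, 0.028 for Slc2a1, the gene of a glucose transporter, and 0.030 for Ada, the adenosine deaminase gene, where the C1q profile itself varied by 0.178. Abcc3 differed by -0.23 ± 0.13 between the groups (limma adjusted p = 0.967). The likeness rests on 6 arrays that share the high value of untreated mouse 3, which was 0.33 for Abcc3 and 0.30 for the C1q mean. That mean took the brightest probe set of each chain, for C1qb 1434366_x_at, at 0.60 in that mouse. C1qa stood there at 0.29, C1qc at 0.01 and the C1qb set without the x_at suffix at -0.31.

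The alternative pathway was represented by Cfb and Cfp. Cfp encodes properdin, which stabilises the enzyme that cleaves C3 and is released by neutrophils and monocytes. Its brighter probe set had intensities of 890, 845 and 767 in NOX-A12 mice, against 816, 820 and 666 in untreated mice. NOX-A12 mice 1 and 2 were above every untreated mouse, and the groups overlapped through NOX-A12 mouse 3. The difference was 0.12 ± 0.12 (SE; limma adjusted p = 0.967, 95% interval -0.16 to 0.40), and 0.03 without untreated mouse 3.

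The dimmer Cfp probe set had 147, 130 and 130 in NOX-A12 mice, against 115, 117 and 136 in untreated mice. Its difference of 0.13 ± 0.10 matched that of the brighter set in size, although untreated mouse 3 was the lowest array at the brighter set and the highest untreated array at the dimmer one. Neutrophil markers, of a cell type that makes properdin, gave a median of 0.05 over 10 genes, 7 of them higher. Their summed intensity was 85304 to 87801 in NOX-A12 mice and 81661 to 88236 in untreated mice. Bright genes weigh most in these sums. The brightest, S100a8, differed by 0.00, while the dimmer Cxcr2 and Il1r2 gave 0.42 ± 0.42 and 0.62 ± 0.14. All 10 neutrophil genes were above the table's median intensity, and their part in the Cfp values was not tested.

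Cfb encodes factor B, the protease that the alternative pathway places on C3b. Its single probe set was dim, below the table's median intensity of 45.3, with 16.8, 19.4 and 19.1 in NOX-A12 mice, against 15.1, 22.3 and 24.2 in untreated mice. All 3 NOX-A12 mice lay inside the range of the untreated mice. The difference was -0.08 ± 0.12 (SE; limma adjusted p = 0.970, 95% interval -0.36 to 0.21), and it was 0.00 without untreated mouse 3.

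The receptors were C5ar1 and C3ar1, both carried by myeloid cells. C5ar1, the receptor gene of the chemoattractant C5a, had the smallest p of the complement genes. At its brighter probe set it had 390, 419 and 351 in NOX-A12 mice, against 322, 353 and 335 in untreated mice. NOX-A12 mice 1 and 2 were above every untreated mouse, and NOX-A12 mouse 3 was just below untreated mouse 2. The difference was 0.19 ± 0.10 (SE; limma unadjusted p = 0.0996, adjusted p = 0.967, 95% interval -0.05 to 0.43).

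The dimmer C5ar1 probe set varied more between mice, with 159, 163 and 66.5 in NOX-A12 mice, against 138, 85.8 and 85.0 in untreated mice. NOX-A12 mouse 3 was the lowest of all 6 and the other NOX-A12 mice were the highest. The difference was 0.24 ± 0.32 (SE), and 0.61 without NOX-A12 mouse 3 (limma unadjusted p = 0.0266, adjusted p = 0.974). The same mouse was also the lowest of its group at the brighter probe set, where the difference without it was 0.26.

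Profiles most like that of C5ar1 at its brighter probe set belonged to Rin3, Fam185a, Hcls1, Ptn and Hopx, by the same measure and over the same 6 arrays. The dimmer C5ar1 set was not used and had another pattern, with NOX-A12 mouse 3 at -0.62 where the brighter set had -0.03. The root mean square difference was 0.017 for Rin3 and 0.028 for Hcls1, a cytoskeletal adaptor gene of blood cells, where the C5ar1 profile itself varied by 0.125. Rin3 differed by 0.16 ± 0.10 between the groups (limma adjusted p = 0.967).

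C3ar1, the receptor gene of C3a, was close to the table's median and read by 3 probe sets. The brightest had 48.8, 52.4 and 68.6 in NOX-A12 mice, against 55.4, 48.7 and 56.6 in untreated mice. NOX-A12 mouse 3 stood above all the others, and the remaining mice of both groups were interleaved. The difference was 0.05 ± 0.13 (SE; limma adjusted p = 0.980, 95% interval -0.24 to 0.35), and it turned to -0.06 without NOX-A12 mouse 3.

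The other C3ar1 probe sets, both below the table's median, went opposite ways. At 1442082_at the values were 30.6, 29.0 and 34.7 in NOX-A12 mice, against 33.2, 36.1 and 40.0 in untreated mice, a difference of -0.14 ± 0.10. At 1419483_at they were 26.7, 23.3 and 30.7 in NOX-A12 mice, against 16.02, 25.7 and 25.4 in untreated mice, a difference of 0.17 ± 0.13. Across the gene the direction was thus not settled, and each interval held 0.

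**Figure D3:**
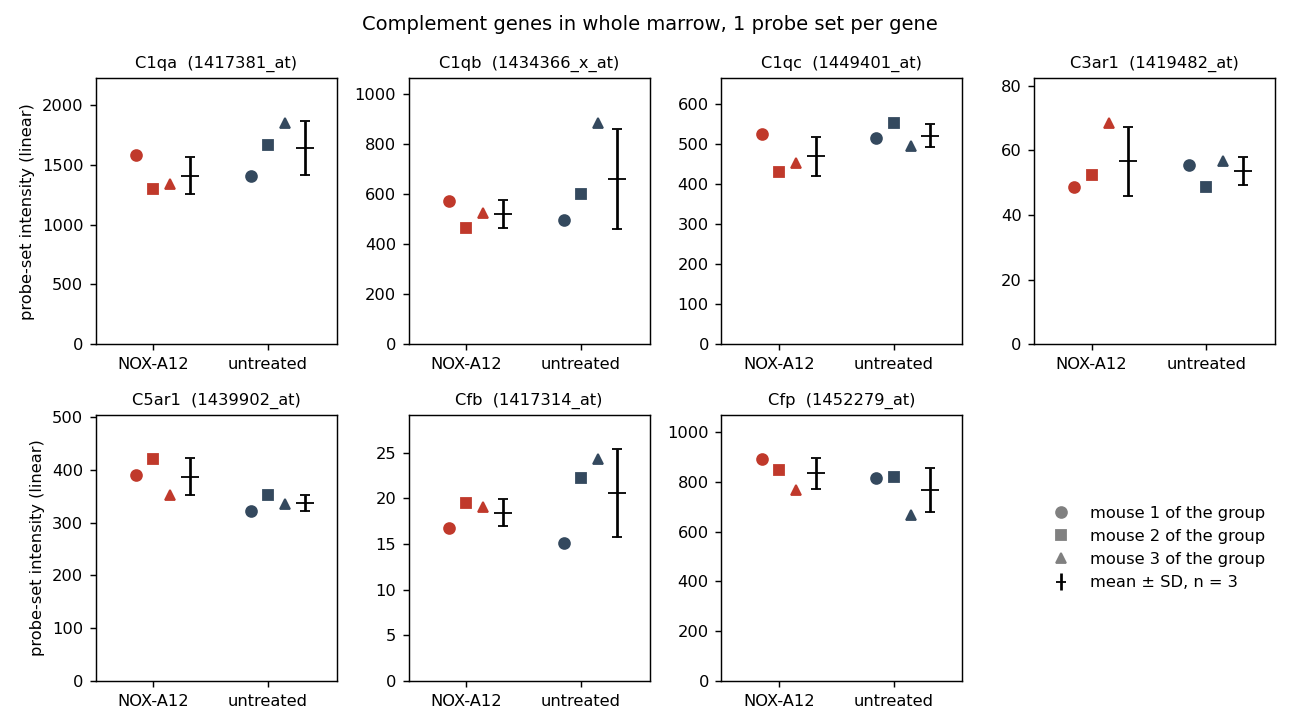
Linear intensity of the brightest probe set of each of the 7 complement genes, with NOX-A12 mice left of untreated mice in every panel, 1 marker shape per mouse number, and the mean ± SD (n = 3) as a bar. The groups overlap in every panel, and untreated mouse 3 is the highest mouse for C1qa, C1qb and Cfb and the lowest for Cfp.

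Monocyte markers were examined beside the receptors, since monocytes carry both. The neutrophil list, of another myeloid cell type, had a median of 0.05. Of 8 classical monocyte genes 5 were higher in NOX-A12 marrow, with a median of 0.31. Their summed intensity was 14398 to 17000 in NOX-A12 mice, against 9736 to 14343 in untreated mice, without overlap and lowest in untreated mouse 3. Cd14, the co-receptor gene for lipopolysaccharide, stood out among them with a mean of 2133 in NOX-A12 and 468 in untreated marrow. The separation of the sums rested on it: without Cd14 they were 12978 to 14708 in NOX-A12 mice and 9211 to 13944 in untreated mice, and overlapped. All 8 monocyte genes were above the table's median intensity. None passed the limma test (lowest adjusted p = 0.790), and their part in the C5ar1 and C3ar1 values was not tested.

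Other complement genes were read from lists of initiating proteins, terminal components, regulators and receptors, with the brightest probe set per gene. Of 45 genes measured, 15 were higher and 30 lower, with a median of -0.04, next to -0.01 over all 18193 genes, of which 9607 were lower. At an adjusted limma p under 0.05, 0 passed, where 0% of all genes passed. At an unadjusted limma p under 0.05, 6 were lower and 0 were higher, where 3.52% of all genes were lower and 1.78% higher. The groups did not overlap for 9 genes on the lower and 1 on the higher side, where 6.65% and 3.92% of all genes did not. Of the lower ones, C6 (mean 1.85), Apcs (4.24), C8g (17.8), C2 (33.4) and Colec11 (42.7) were below the table's median of 45.3. The higher one, Mbl2 (6.58), was below it too. The lower genes C1ra, Serping1, Itgax and Vsig4 were above it. The counts at an unadjusted limma p under 0.05 changed when a mouse was left out. Without untreated mouse 3, 3 were lower and 1 higher, where 2.91% and 2.31% of all genes were. Without NOX-A12 mouse 2, 2 were lower and 1 higher, where 2.20% and 1.44% were. Without untreated mouse 1, 7 were lower and 2 higher, where 5.51% and 2.91% were.

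Serping1, the gene of the C1 inhibitor that blocks the proteases of the C1 complex, had the largest difference of the 6. Its intensities were 271, 309 and 313 in NOX-A12 mice, against 427, 374 and 553 in untreated mice. All NOX-A12 mice were below all untreated mice, a difference of -0.56 ± 0.15 (SE; limma unadjusted p = 0.00723, adjusted p = 0.926). It was -0.41 without untreated mouse 3 and between -0.68 and -0.50 without any other mouse. Among the 14 other measured regulators, 7 were higher and 7 lower, from -0.28 for Clu to 0.22 for Vtn.

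Among 15 initiating genes, 3 were higher and 12 lower. C1ra, which encodes a protease of the C1 complex that acts right after C1q binds, had 65.3, 86.2 and 100 in NOX-A12 mice, against 103, 116 and 140 in untreated mice. The groups did not overlap, and the difference was -0.45 ± 0.16 (SE; limma unadjusted p = 0.0270, adjusted p = 0.967). The protease gene next in line, C1s1, gave -0.28 ± 0.16 with groups that overlapped.

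C2, the gene of the protease that joins C4b in the classical pathway, was dim. Its brightest probe set had 27.6, 26.8 and 26.1 in NOX-A12 mice, against 37.3, 41.3 and 41.1 in untreated mice. The groups were apart at this set, which also carries the x_at suffix, with a difference of -0.38 ± 0.09 (SE; limma unadjusted p = 0.00271, adjusted p = 0.926). Another C2 set with that suffix gave -0.34 ± 0.13, and the only C2 set without it gave 0.22 ± 0.25, on the higher side.

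Ptx3, which encodes a soluble pattern receptor that binds C1q, had 48.1, 31.99 and 37.9 in NOX-A12 mice, against 46.1, 73.0 and 60.3 in untreated mice, a difference of -0.45 ± 0.17. NOX-A12 mouse 1 lay within the untreated range. The collectin gene Colec11 was dim, below the table's median intensity, and Ptx3 was just above it. Colec11 had 36.8, 36.2 and 39.7 in NOX-A12 mice, against 53.8, 46.0 and 43.5 in untreated mice, a difference of -0.25 ± 0.10 with groups apart. Its unadjusted limma p was 0.0391, and 0.0239 to 0.113 when each mouse was left out. Ptx3 and Colec11 each had a limma adjusted p of 0.967.

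Vsig4, a receptor of tissue macrophages for C3 fragments, had 42.9, 33.9 and 43.9 in NOX-A12 mice, against 49.8, 53.0 and 58.9 in untreated mice. The groups were apart, with a difference of -0.32 ± 0.11 (SE; limma unadjusted p = 0.0234, adjusted p = 0.967). Of the 9 receptor genes, 3 were higher and 6 lower. Itgam, which encodes the alpha chain of the receptor for cleaved C3b on myeloid cells, gave 0.49 ± 0.51, with 773, 1346 and 1034 in NOX-A12 mice, against 1207, 1072 and 291 in untreated mice. The low value was that of untreated mouse 3. Itgb2, the gene of its partner chain, gave 0.08 ± 0.12.

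Terminal components, which assemble the lytic pore, gave no unadjusted limma p under 0.05 among 6 genes. Hc, the mouse gene of C5, had 72.0, 76.5 and 64.5 in NOX-A12 mice, against 56.8, 67.1 and 46.1 in untreated mice, a difference of 0.27 ± 0.13 (SE; limma adjusted p = 0.967). C8a gave -0.19 ± 0.11. C6 was listed at 1.00 in all 3 NOX-A12 mice, against 3.22, 3.48 and 1.40 in untreated mice, all near background. Only Hc of these genes was above the table's median.

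**Figure D4:**
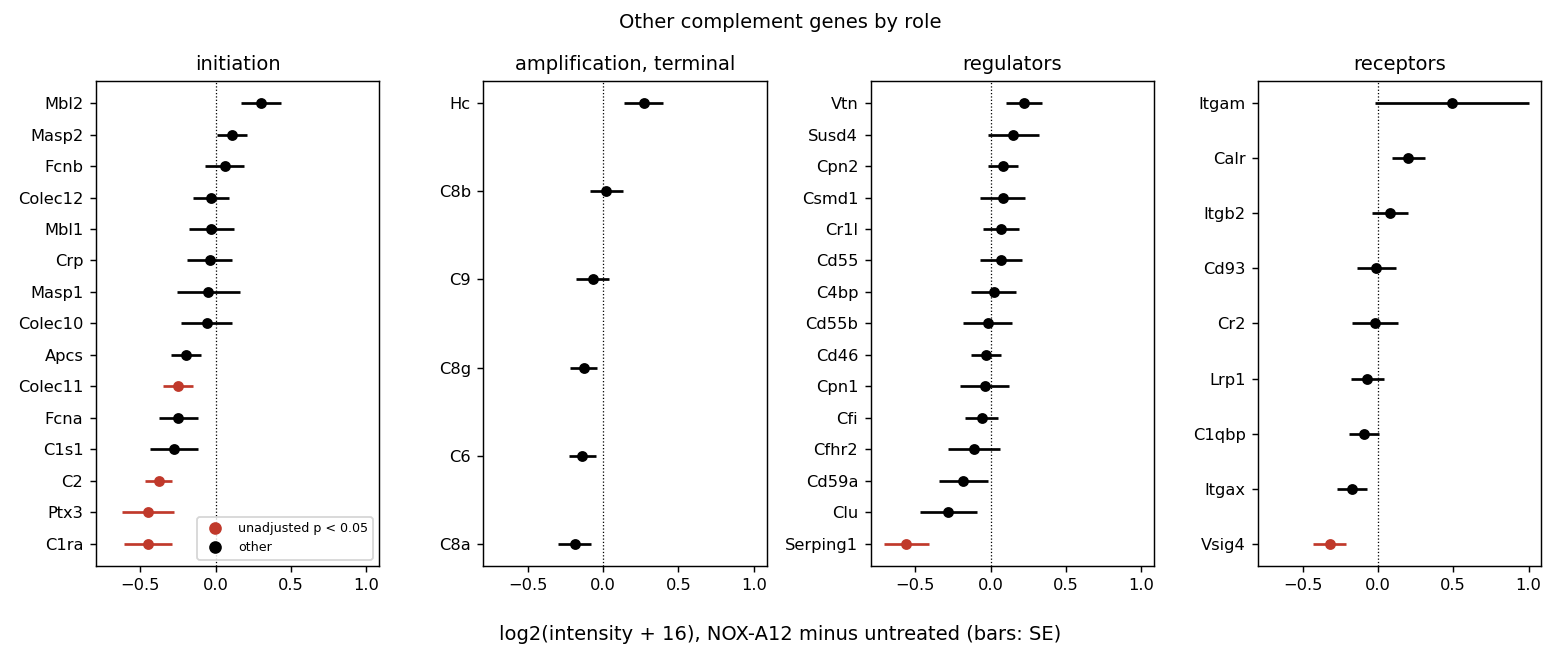
Difference of log2(intensity + 16), NOX-A12 minus untreated, with its SE, for 45 other complement genes grouped by role, 1 probe set per gene. The 6 genes at an unadjusted p under 0.05, in red, all lie on the lower side, with Serping1 at -0.56 and Vsig4 at -0.32, and none passed after adjustment.

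Stromal markers were examined beside Serping1 and C1ra, since stromal cells make both. All 12 stromal reticular genes were lower in NOX-A12 marrow, with a median of -0.45. Of all 18193 genes, 9607 were lower. The fall was not particular to this list: 8 of 8 endothelial and 5 of 7 adipocyte genes were lower, with medians of -0.51 and -0.49. The summed intensity of the 12 stromal genes was 5448 to 6343 in NOX-A12 mice, against 7327 to 9029 in untreated mice, and all 12 were above the table's median. None of the 12 passed the limma test (lowest adjusted p = 0.926). The part of any of these cell types in the Serping1 and C1ra values was not tested.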

How the data were processed

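The authors deposited 1 table of linear probe-set intensity values. The sources used here do not give the software or the normalization that made it. Per the labels' protocols, total RNA of whole marrow was labelled with biotin. Groups and mouse numbers came from the sample titles, which number separate mice. Scanner files were not used. Names came from the platform's annotation, which gave 1 symbol to 34945, several to 932 and none to 9160.

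Intensities were used as deposited and transformed to log2(intensity + 16). All probe sets entered 1 limma fit (version 3.58.1, under R 4.3.3; lmFit then eBayes, two-sided tests, 3 NOX-A12 against 3 untreated arrays, no covariate, 7.24 degrees of freedom), with Benjamini-Hochberg adjustment over 45037 probe sets and a threshold of 0.05. The number of arrays limits the precision. The probe set of highest mean stood for a gene. Complement genes, wider lists and markers were chosen with earlier results of these data known. The text names every complement gene with a probe set, every wider pathway gene with an unadjusted p under 0.05 or otherwise those with the smallest p in a list, and the 5 genes nearest in profile to the C1q chains and to C5ar1; the profile of C3 was not used here. Other genes named, such as Itgam, Itgb2, Clu, Vtn, C1s1, Adgre1, Cd14, Ttr and Fgb, were chosen after their values were seen. Alternatives were offsets of 1 and 64, quantile normalization, median centring, leaving out each mouse in turn, the mouse number as a block, array weights, robust variances with a trend, looser thresholds, brighter probe sets only, and averaging a gene's probe sets. Promoters are RefSeq's on GRCm38.p6.

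The remaining marker lists, some of them also named above, gave these median differences: adipocyte -0.49, endothelial -0.51, dendritic -0.18, B lineage -0.32, natural killer -0.34, erythroid 0.05, megakaryocyte -0.14, skeletal muscle 0.04 and hepatocyte 0.06.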

Additional observations from a re-analysis of the deposited data

How the results depend on the processing

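The 7 gene differences were each recomputed under 14 or 15 alternatives, giving 104 values with limma adjusted p from 0.624 to 1.00, none past the threshold. Direction was kept in 103 of the 104, but not all of these could turn. The mouse number as a block, robust variances with a trend and the limit to brighter probe sets leave a difference as it was. So does averaging for a gene with 1 probe set. C3ar1 without untreated mouse 2 and Cfb without untreated mouse 3 kept their sign only before rounding, at 0.00. C3ar1 turned, at -0.06 without NOX-A12 mouse 3, in a range up to 0.13 when each mouse was left out. The count of complement probe sets past adjusted p 0.05 was 0 under every alternative run, thresholds of 0.1 and 0.25 included. At an unadjusted p under 0.05 it was 1 with an offset of 64 (C5ar1, where 4.91% of all probe sets passed). It was 0 to 2 when each mouse was left out. The 2 came without untreated mouse 1 (C1qa and 1434366_x_at of C1qb, where 7.89% of all probe sets passed). In that setting the other C1qb sets gave -0.42 at 1437726_x_at and 0.12 at 1417063_at, the set without the suffix. The count was 1 without NOX-A12 mouse 3 (C5ar1, where 4.73% passed). Probe sets whose groups do not overlap numbered 1 to 4 of 13 when each mouse was left out, where 16.9% to 24.6% of all probe sets did not overlap; 4 came without untreated mouse 1 or NOX-A12 mouse 3. Of the 45 wider complement genes, 2 to 7 were lower and 0 to 2 higher at an unadjusted p under 0.05 when each mouse was left out, where 2.20% to 5.51% of all genes were lower and 1.01% to 2.91% higher. Under the other settings, 4 to 8 were lower and 0 or 1 higher, where 3.25% to 4.14% and 1.58% to 2.40% were. These settings were chosen after seeing the data. A gene on the higher side appeared in 7 of the 13, so the absence of higher genes was not stable. With the mouse number as a replicate block, 0 complement probe sets passed adjusted or unadjusted, and 4 wider genes were lower and 1 higher. Deviations of mice of the same number had correlations of -0.09, 0.05 and 0.03, where mice of different numbers gave -0.21 to 0.22. With 3 mice per group these values cannot decide whether the numbers pair the mice. The sample titles state no pairing.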

Other observations

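The probe set 1418021_at is annotated to C4a and C4b together, near-identical neighbouring copies, and it cannot tell them apart. It was looked at after its values were seen. Its intensities were 106, 110 and 101 in NOX-A12 mice, against 163, 152 and 167 in untreated mice. All NOX-A12 mice were below all untreated mice, and the spread within each group was small, with means of 105 ± 4.53 in NOX-A12 and 161 ± 7.55 in untreated marrow (SD, n = 3 each). The difference was -0.54 ± 0.09 (SE; limma unadjusted p = 0.000441, adjusted p = 0.926), so it did not pass over all probe sets.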
